A study of Mus musculus with 3 samples.

Results

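Chains of c-FOS peaks are places where 3 or more peaks follow each other along a chromosome with at most 1000 bp of sequence between each peak and the next. They were found from the coordinates of 1 deposited peak list by linking neighbouring peaks whose gap, from the end of the first to the start of the second, did not exceed 1000 bp. The list held 15011 peaks, of which 1009 (6.72%, Wilson 95% interval 6.33 to 7.13%) lay in 292 such chains. A further 2722 peaks formed 1361 pairs, and 11280 peaks had no neighbour within 1000 bp and are called single peaks below. The members were chosen by the measured gap between neighbouring peaks, so the spacing, span and number of chains are descriptions and carry no test. Peak width comes from the same peak calls and is likewise described only.

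The list comes from chromatin immunoprecipitation with sequencing (ChIP-seq) in ASZ001, a cell line established from mouse basal cell carcinoma. Its genotype was RasV12 (a constitutively active Ras mutant) with TGFbR1, a receptor for TGF-beta, knocked down by shRNA, and it had been given Dox and 4OHT. Chromatin was taken on day 6 after induction in 2 samples precipitated with a rabbit monoclonal antibody to c-FOS and in 1 input sample without antibody. All 3 samples shared genotype, treatment and time. No uninduced cells were analysed here, so nothing below is a change on induction. The list does not separate the 2 ChIP samples and gives no height, score or p-value, so no value has a replicate error and the depth behind a peak is unknown. All intervals cover counting error only.

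c-FOS is a basic leucine zipper protein that does not bind DNA alone. It pairs with a JUN protein to form AP-1, which recognises a short palindromic element and acts downstream of Ras and MAP kinase signalling. AP-1 sites are often found in enhancers, and enhancers and promoters commonly hold several transcription factor sites within a few nucleosomes. A ChIP-seq peak marks a stretch with more precipitated fragments than the background, so neighbouring peaks can be separate sites or pieces of a longer stretch, and coordinates alone do not tell these apart. The sequence and the genes beneath the chains were not analysed here, because no mm9 genome or annotation was used. Regions prone to artefact signal were not removed either.

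Most chains were short. Of the 292 chains, 214 (73.3%) held 3 peaks and 50 (17.1%) held 4. There were 14 chains of 5 peaks, 8 of 6, 3 of 7, 2 of 9 and 1 of 10, and none had 8. The median span, from the first base of the first peak to the last base of the last, was 1396 bp, with quartiles of 1031 and 1820 bp. Spans ran from 491 to 6505 bp. A span over 1000 bp was found in 225 chains (77.1%), over 2000 bp in 53 and over 3000 bp in 16.

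**Figure D1:**
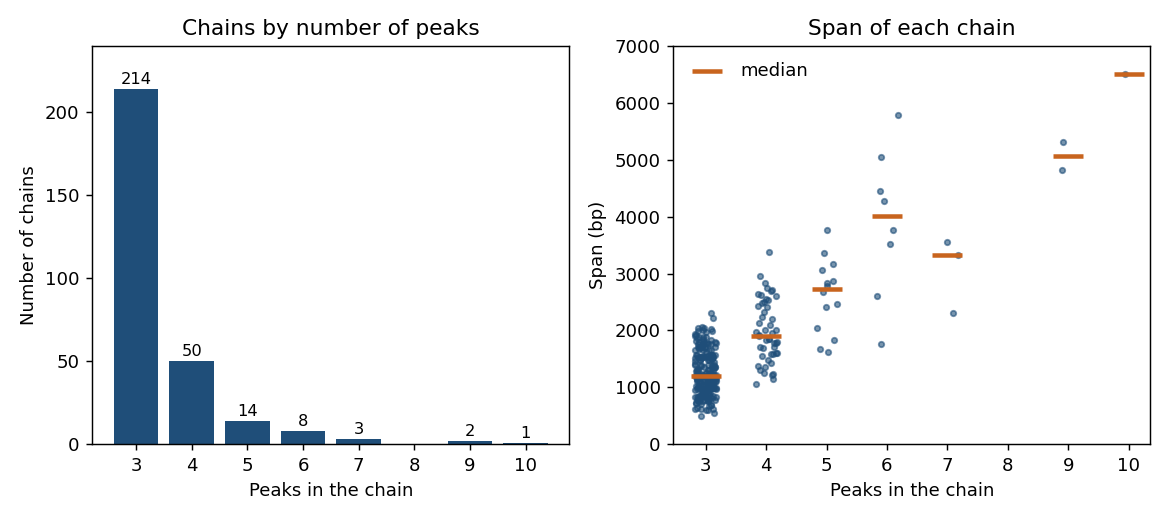
The left panel gives the number of chains (y axis) by the number of peaks in a chain (x axis), and the right panel gives the span of each chain in bp (points, spread sideways for visibility) with the median of each size (bars). The 214 chains of 3 peaks had a median span of 1206 bp, and the chain of 10 peaks measured 6505 bp.

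Span grew with the number of peaks, as it must when peaks are added, but sizes overlapped widely. Chains of 3 peaks measured 491 to 2314 bp (median 1206 bp) and chains of 4 measured 1066 to 3384 bp (median 1906.5 bp). Chains of 5 measured 1622 to 3762 bp and chains of 6 measured 1769 to 5788 bp. The 3 chains of 7 peaks, at 2298, 3331 and 3556 bp, were all shorter than the median of the chains of 6, which was 4012 bp. Peaks covered a median of 46.1% of a chain's span (quartiles 36.9 and 58.7%), and in 123 chains (42.1%) they covered more than 50% of it. All chain peaks together covered 209.7 kb, which was 7.38% of the length under all peaks and 45.2% of the summed spans of the chains.

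Inside the chains there were 717 gaps between neighbouring peaks. The median gap was 268 bp, with quartiles of 138 and 495 bp, and gaps ran from 76 to 998 bp. Short gaps made up much of this. A gap of at most 200 bp was found 279 times (38.9%) and a gap of at most 500 bp 539 times (75.2%). The commonest class of 100 bp was 101 to 200 bp, with 192 chain gaps, against 87 gaps of at most 100 bp and 108 gaps of 201 to 300 bp. From there the number fell to 29 gaps of 901 to 1000 bp. The shortest gap of 76 bp was also the shortest in the whole list. Whether the peak caller set it was not tested, and its settings are not given. From midpoint to midpoint, neighbouring chain peaks lay a median of 487.5 bp apart (quartiles 346 and 736 bp).

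Pairs were spaced in a like manner. Their 1361 gaps had a median of 246 bp (quartiles 130 and 466 bp), and 42.3% were at most 200 bp. The median gap showed no steady fall with chain size. It was 254 bp in chains of 3, 297.5 bp in chains of 4 and 308.5 bp in chains of 5. In chains of 6 it was 253.5 bp, and in chains of 7 or more 290 bp. The 95% intervals of these medians overlapped, but they were wide (177 to 424 bp in chains of 6) and treat gaps of 1 chain as independent. The linking limit also caps every gap, so a difference in packing is not excluded.

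**Figure D2:**
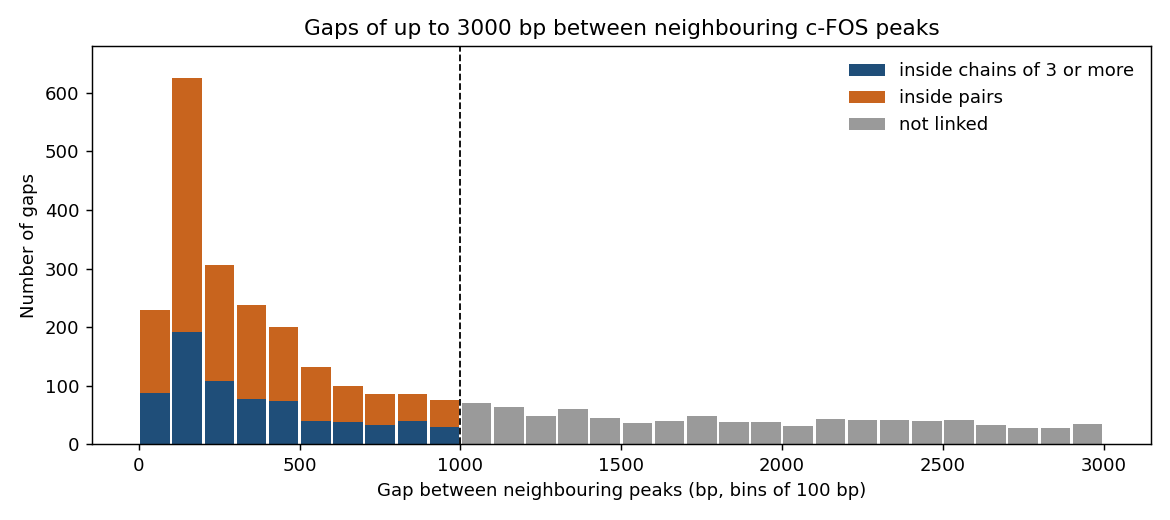
The y axis counts gaps between neighbouring peaks in bins of 100 bp (x axis, up to 3000 bp), stacked by whether the gap lies inside a chain, inside a pair or was not linked, and the dashed line marks the limit of 1000 bp. Gaps were commonest at 101 to 200 bp, with 625 in the list, and the count did not drop at the limit, with 75 gaps just inside and 71 just outside.

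The limit of 1000 bp does not mark a break in the spacing. The list held 75 gaps of 901 to 1000 bp and 71 of 1001 to 1100 bp. The longest gaps inside chains were 998, 996, 996, 995 and 983 bp. Just outside, the shortest gaps whose closing would have made or lengthened a chain were 1002, 1009, 1013, 1015 and 1020 bp. Of the 71 gaps of 1001 to 1100 bp, 23 were of this kind, and 10 of those touched an existing chain. Conversely, 28 chains (9.59%) contained a gap over 900 bp. In 155 chains (53.1%) every gap was at most 500 bp, and in 44 (15.1%) every gap was at most 200 bp.

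Spacing within a chain was uneven. In the chains of 3 peaks the smaller of the 2 gaps had a median of 138 bp and the larger a median of 441.5 bp. The larger gap was a median of 2.09 times the smaller (quartiles 1.49 and 3.49), and up to 11.3 times. Peaks of 1 chain also differed in width. The widest peak was a median of 2.18 times the narrowest (quartiles 1.69 and 2.88), and held a median of 43.2% of the covered length. In chains of 3, the widest peak had a median width of 247 bp, the next 164 bp and the narrowest 116 bp. The widest of the 3 was the middle peak in 81 chains, the peak at the lower coordinate in 57 and the peak at the higher coordinate in 75, with 1 tie. Over all chains, the 425 inner peaks had a median width of 166 bp and the 584 outer peaks 167 bp, so width did not separate the middle of a chain from its ends.

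Peaks in chains were slightly wider than single peaks and as wide as paired ones. Their median width was 167 bp (95% interval 160 to 173, quartiles 125 and 242 bp), against 168 bp in pairs (164 to 172) and 156 bp for single peaks (154 to 157). These intervals treat peaks as independent, although neighbours share a chain. Of the 14 chromosomes with at least 25 chain peaks, 12 had a higher median width for chain peaks than for single peaks and 2 a lower one. Chromosomes with chains but fewer chain peaks mostly went the other way. Chain and single peaks had medians of 120 and 159 bp on chromosome 3, and 137 and 156 bp on chromosome 9. On chromosome 12 these were 101 and 142 bp, and on chromosome X 102 and 164 bp. Only chromosome 18 among them had the higher median in chains (167.5 against 163 bp). Chains of 5 or more peaks had the highest median width of the 3 size classes compared, with a median of 187 bp (172 to 209), against 164.5 bp in chains of 3 (158 to 171) and 159.5 bp in chains of 4 (148 to 182), whose interval overlapped that of the larger chains.

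**Figure D3:**
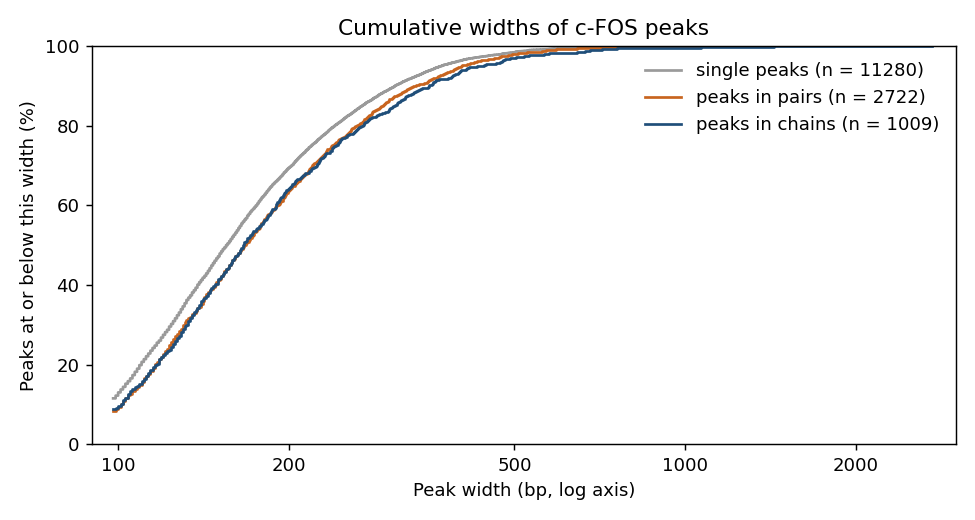
The curves give the percentage of peaks (y axis) at or below each width (x axis, bp, log axis) for single peaks, peaks in pairs and peaks in chains. The curves of pairs and chains nearly coincide and lie to the right of that of single peaks, with medians of 168, 167 and 156 bp.

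The tails of the width distribution were divided unequally. In the whole list 1.75% of peaks were wider than 500 bp. Among chain peaks there were 30 of 1009 (2.97%, Wilson 95% interval 2.09 to 4.21%), among paired peaks 2.06% (1.59 to 2.66%) and among single peaks 1.57% (1.36 to 1.82%). Chains thus held 11.4% of the 263 wide peaks and 6.72% of all peaks. The interval for chain peaks overlapped that of pairs, and it is too narrow because it treats peaks of 1 chain as independent. The 30 wide peaks lay in 24 chains, 14 of them at an end and 16 inside, and 4 chains had more than 1. Those of 515, 2729, 563 and 667 bp came from 1 chain on chromosome 17, described below. Whether that region carries repeated sequence was not tested. At the other extreme, 10.7% of all peaks had the narrowest width of 98 bp. In chains these were 89 (8.82%, 7.22 to 10.7%), in pairs 8.27% (7.29 to 9.36%) and among single peaks 11.5% (10.9 to 12.1%). They occurred in 84 chains, at most once in all but 5 of these, and 2 chains held both a peak of 98 bp and a peak wider than 500 bp. None of the chains was made of 98 bp peaks alone.

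The largest chain lay on chromosome 8, from 86721266 to 86727770 (mm9, 1-based), with 10 peaks. In order of coordinate the peaks were 198, 207, 173, 155, 442, 393, 241, 263, 203 and 562 bp wide. The gaps between them were 822, 81, 802, 125, 301, 495, 748, 209 and 85 bp. Short and long gaps alternated at its lower end, and its widest peak (86727209 to 86727770) closed the chain. A chain of 4 peaks followed 5128 bp further on (86732899 to 86735541), with no other peak in between.

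The chain on chromosome 11 from 3032035 to 3037337 had 9 peaks, with widths of 316, 482, 219, 98, 163, 175, 160, 231 and 113 bp. Its gaps were 539, 145, 290, 235, 671, 290, 868 and 308 bp. No gap was under 145 bp, and peaks covered 36.9% of the 5303 bp. It belonged to the run with the most chains in the list, where runs join chains within 10 kb of each other. In 26.2 kb, from 3026972 to 3053196, 4 chains of 4, 9, 4 and 3 peaks followed each other at distances of 2115, 5701 and 6478 bp, and these 20 peaks stood beside only 3 others. The other 13 runs held 2 chains each. Whether sequence here is repeated or prone to artefact signal was not tested.

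The other chain of 9 peaks was on chromosome 19, from 46574133 to 46578943. Its peaks measured 245, 113, 110, 114, 653, 205, 131, 183 and 131 bp, with gaps of 401, 466, 128, 491, 125, 81, 920 and 314 bp. A single wide peak (46576201 to 46576853) stood in its middle and 5 of the others were narrower than the list's median of 158 bp. Unlike those on chromosomes 8 and 11 it had no other chain within 1 Mb; the nearest was 1481 kb away. The gap of 920 bp divides it into 7 and 2 peaks, and the stretch of 7 still forms a chain at a limit of 500 bp.

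**Figure D4:**
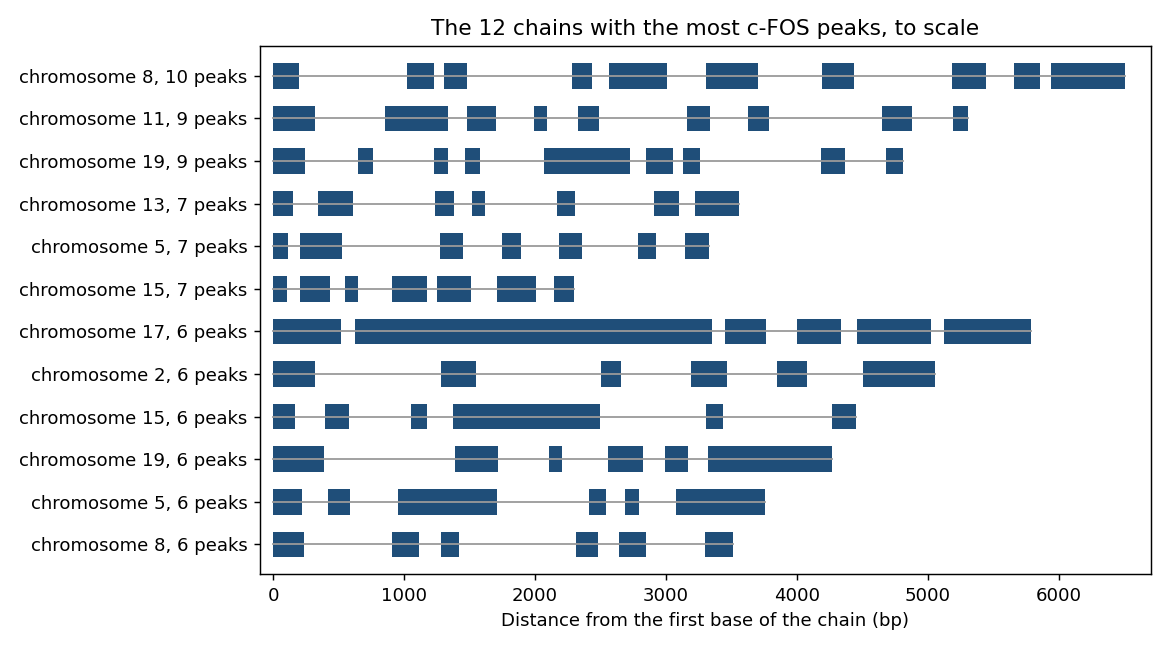
Each row is 1 of the 12 chains with the most peaks (of 8 chains tied at 6 peaks, the 6 with the longest spans), drawn to scale, with peaks as boxes and distance from the first base of the chain in bp on the x axis. The chain on chromosome 17 is filled almost end to end by peaks (88.5% of its span), whereas peaks covered 33.4 to 61.5% in the other 11.

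The 3 chains of 7 peaks differed in packing. That on chromosome 13 (40823691 to 40827246) spanned 3556 bp with gaps of 118 to 631 bp, and its 7 peaks were 99 to 338 bp wide. That on chromosome 5 (139468916 to 139472246) spanned 3331 bp with gaps of 96 to 749 bp. It followed a chain of 5 peaks at a distance of 3031 bp. That on chromosome 15 (38229003 to 38231300) was the tightest, with 7 peaks in 2298 bp and no gap over 257 bp. Peaks covered 61.5% of it, and no other peak lay within 10 kb.

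Among the chains of 6, the one on chromosome 17 from 39979967 to 39985754 stood apart. Its peaks were 515, 2729, 312, 335, 563 and 667 bp wide, with gaps of only 108, 98, 238, 126 and 97 bp, and they covered 5121 of its 5788 bp. Every one of its peaks was wider than the upper quartile of the list, 225 bp. Its share of covered span, 88.5%, was the highest of the 292 chains, and the next, a chain of 3 on chromosome 6 (86476132 to 86477369), reached 82.9%. The nearest peak outside it was 1037 kb away, the greatest distance of any chain. Whether this region carries repeated sequence was not tested.

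Some other chains of 6 peaks had 1 or 2 members wider than 500 bp among narrower ones, and the rest had none. On chromosome 15 (85500298 to 85504750) a peak of 1121 bp stood among 5 of 126 to 187 bp. On chromosome 5 (143581903 to 143585659) peaks of 758 and 678 bp stood among 4 of 109 to 216 bp. This chain came 2261 bp after a chain of 5 peaks (143575880 to 143579641) whose widest peak measured 1438 bp and of which 79.6% was covered. On chromosome 19 (5797111 to 5801377) the last peak, 943 bp wide, followed 5 of 102 to 388 bp, and a gap of 998 bp set off the first. The chain on chromosome 2 (179955738 to 179960793) ended in a peak of 552 bp after 5 of 155 to 318 bp. It was loosely spaced, with no gap under 381 bp, and was among the 5 longest at 5056 bp. On chromosome 8 (123060268 to 123063780) all 6 peaks were 140 to 233 bp wide and covered 33.4% of the span. A further chain of 6 on chromosome 8 (74102849 to 74105445) spanned 2597 bp, and its widest peak measured 359 bp.

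Each of the 3 shortest chains held a peak of 98 bp, and none of their peaks was wider than the list's median of 158 bp. On chromosome 5, 3 peaks of 107, 98 and 100 bp lay between 20207655 and 20208145, with gaps of 110 and 76 bp, in 491 bp altogether. A second chain on chromosome 5 (125621249 to 125621802) had peaks of 98, 140 and 118 bp and gaps of 94 and 104 bp. On chromosome 7 (133839064 to 133839664) the peaks were 98, 100 and 158 bp wide and the gaps 117 and 128 bp. Each of these chains fits within 601 bp, less than the 653 bp of the widest peak in the chromosome 19 chain of 9.

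Chains were found on 19 of the 21 chromosomes of the list and were gathered on a few of them. Chromosome 11 held 48 chains, chromosome 5 held 38, chromosome 8 held 36 and chromosome 19 held 27. These are also the 4 chromosomes with the most peaks per Mb (15.0, 10.7, 10.7 and 13.2 in that order). Whether peak density accounts for the number of chains was not tested. Together these 4 chromosomes carried 53.3% of chain peaks and 37.8% of all peaks. On them 9.48% of peaks were in chains, against 5.05% on the other 17 chromosomes. These 4 hold the most chains in the list, so the choice itself favours a higher share and the contrast is a description only. Of the 14 chains of 6 or more peaks they held 9, and of all 292 chains they held 149 (51.0%).

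Relative to its own peaks, chromosome 19 had the most in chains, 105 of 810 (13.0%, Wilson 95% interval 10.8 to 15.5%). Chromosome 8 followed with 9.47% (8.04 to 11.1%), chromosome 11 with 8.89% (7.67 to 10.3%) and chromosome 5 with 8.40% (7.15 to 9.85%). Chromosome X ranked between chromosomes 11 and 5 with 8.82%, but from only 3 of 34 peaks, with an interval of 3.05 to 23.0%. The intervals of chromosomes 5, 8, 11 and 19 lay above the share in the whole list, 6.72%. On 9 chromosomes (1, 2, 3, 4, 7, 9, 12, 14 and 18) the interval lay below it, and on the other 8 it included it. Peaks of 1 chain enter together, so these intervals are too narrow. Chromosomes 5, 8, 11 and 19, with the most peaks per Mb, had the highest shares apart from that of chromosome X. The order of the shares was not that of peaks per Mb throughout, and a link between share and density was not tested. Chromosome 10, with 2.88 peaks per Mb, had 7.75% of its peaks in chains (5.45 to 10.9%), from only 9 chains. Chromosome 2, with 6.58 peaks per Mb, had 4.43% (3.40 to 5.75%). Chromosome 3 had 2.52% in chains (1.58 to 4.00%), although its share in pairs, 20.1%, was close to the 20.4% of chromosome 11.

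**Figure D5:**
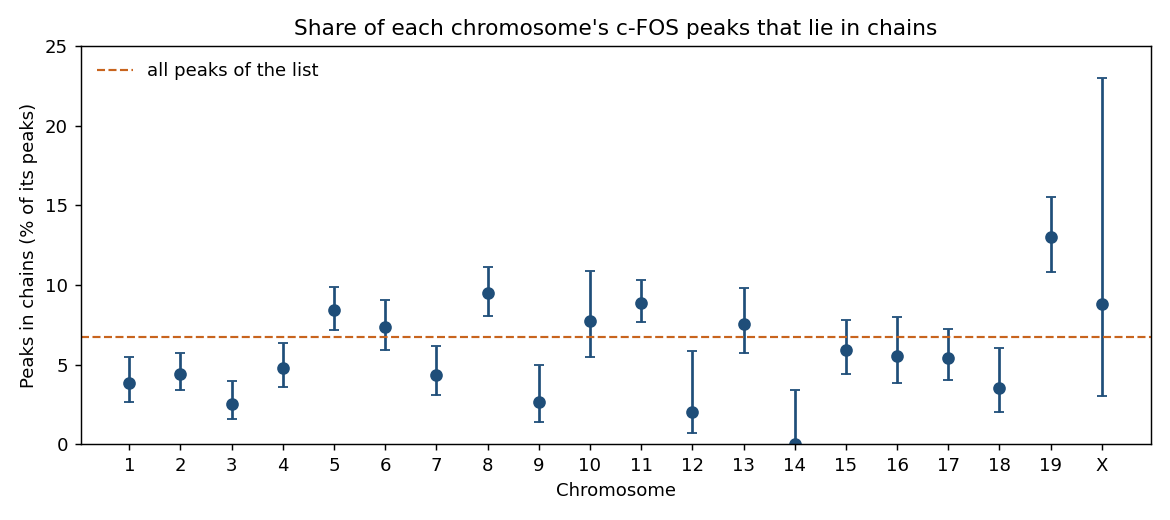
Points give the percentage of a chromosome's peaks that lie in chains (y axis) for chromosomes 1 to 19 and X (x axis), with Wilson 95% intervals that treat peaks as independent, and the dashed line marks the 6.72% of the whole list. Chromosome 19 is highest at 13.0%, and chromosome X has a wide interval (3.05 to 23.0%) because it holds 34 peaks. Chromosome Y, with 3 peaks and no chain, is not drawn.

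The sparse chromosomes had few chains in number. Chromosome 12 had 1 chain of 3 peaks in 778 bp among 147 peaks, a share of 2.04% (0.696 to 5.83%). Chromosome X had 1 chain of 3 peaks in 1398 bp among 34 peaks, and its share of 8.82% was above the 6.72% of the list, with an interval that included it. Chromosome 14 had none among 109 peaks. A limit of 3 counts gives a share of 2.75%, and the Wilson interval reaches 3.40%. Both treat peaks as independent, whereas a chain holds at least 3 peaks. Both limits are therefore too low, and a higher share is not excluded. Chromosome Y had none among 3 peaks, too few to set a limit. The chain on chromosome 12 (60141021 to 60141798) had peaks of 266, 98 and 101 bp, where single peaks of that chromosome had a median width of 142 bp. That on chromosome X (166436206 to 166437603) had peaks of 98, 176 and 102 bp, against a median of 164 bp for single peaks.

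Many chains had further peaks close by. Outside its own peaks, the nearest peak to a chain was a median of 9.50 kb away (95% interval 6.69 to 12.8 kb), against 16.9 kb for pairs (15.6 to 18.7 kb) and 21.3 kb for single peaks (20.5 to 22.0 kb). Another peak lay within 10 kb of 149 chains (51.0%), of 500 of 1361 pairs (36.7%) and of 3579 of the 11280 single peaks (31.7%). By the rule each of these distances exceeds 1000 bp. Only 16 chains (5.48%) had no other peak within 100 kb. Whether the density of peaks on a chromosome accounts for part of these differences was not tested.

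Some chains also lay near other chains. Within 10 kb of another chain there were 30 (10.3%), which formed 14 runs, 13 of them of 2 chains. Within 100 kb there were 75 (25.7%). A larger number, 108 (37.0%), had no other chain within 1 Mb. The closest neighbours were 2 chains of 3 peaks on chromosome 17 (34255659 to 34256862 and 34258097 to 34259873), 1234 bp apart, which are joined if the limit is raised to 2000 bp. The 2 chains on chromosome 8 at 87501138 to 87503813 and 87513458 to 87515161, of 5 and 4 peaks, were 9644 bp apart with 2 peaks between them.

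By windows of 1 Mb, chains started in 209 of the 1774 windows with any peak. In 154 of these there was 1 chain and in 39 there were 2. The most, 6 chains with 27 peaks, were in the window of chromosome 19 from 5000001 to 6000000, where they made up 28.7% of the 94 peaks. Its chains held 4, 4, 4, 6, 3 and 6 peaks. The second chain of 6 (5826074 to 5827842) had gaps of 115 to 269 bp and peaks of at most 193 bp, and so lacked the wide member and the long gap of the first. Chromosome 11 from 120000001 to 121000000 held 5 chains with 16 of 69 peaks (23.2%). Among the 7 windows with 4 chains, the share of peaks that lay in chains ranged from 16.3 to 52.8%. On chromosome 5 from 143000001 to 144000000 chains held 19 of 36 peaks (52.8%), on chromosome 2 from 179000001 to 180000000 they held 15 of 38 (39.5%), and on chromosome 11 from 117000001 to 118000000 they held 14 of 86 (16.3%). These windows were picked for holding 4 chains, so a larger total of peaks goes with a smaller share largely by construction. Nothing about windows in general follows from them.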

How the data were processed

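Reads of the 2 c-FOS ChIP samples and the input were aligned with Bowtie2 to mm9 and peaks were called with MACS2, per the submitters' processing notes; their versions and thresholds, any role of the input and how samples were combined are not stated there. Start and end were read for each peak from the list the authors deposited, which has 3 columns and names no sample. No listed peak lay beyond an mm9 chromosome end and 55 lay beyond an mm10 end (lengths from GenomeInfoDb 1.38.1, R 4.3.3). Peaks were sorted and linked with pandas 2.3.3 and numpy 2.4.6 under Python 3.11.15, intervals computed with scipy 1.17.1, and figures drawn with matplotlib 3.10.9. Gaps count the bases between 2 peaks. Intervals of shares are Wilson 95% intervals, and those of medians are exact binomial order-statistic intervals at 95%. The linking code was run on 20 simulated lists whose planted gaps kept to the same limit. In 20 the number of chains found at each size equalled the number planted. This checks the code and not the rule, and the place of each chain was not compared. No test was run over peaks, since peaks of 1 list are not replicates. Named chains are the 12 with the most peaks (ties by the longer span, which kept 6 of the 8 chains of 6 peaks), the 5 longest and the 3 shortest, and others named (the remaining chains of 6, chain neighbours, windows, and extremes of coverage) were chosen after their values were seen. The members and this rule were chosen with earlier results of these data known. Alternatives were linking limits of 500 and 2000 bp, a minimum of 4 peaks, only peaks above the narrowest or the median width, midpoint distances, and chromosomes 1 to 19 and X alone. Sequence motifs, base composition, gene context and gene lists had been planned and were not analysed, since no mm9 sequence or annotation was used here.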

Additional observations from a re-analysis of the deposited data

How the results depend on the processing

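Chains depend on the linking rule by construction. A limit of 500 bp left 192 chains with 626 peaks, all of them among the 1009, with a median span of 1094 bp and a median gap of 193.5 bp. A limit of 2000 bp gave 408 chains with 1453 peaks, a median span of 1862 bp and a median gap of 380 bp. The largest chain then had 14 peaks and lay on chromosome 5. With at least 4 peaks there were 78 chains with 367 peaks and a median span of 2264 bp. Linking midpoints at most 1000 bp apart kept 867 of the 1009 peaks, with a median span of 1245 bp and a median gap of 233 bp. Without the narrowest peaks 796 of the 1009 stayed in chains, and their median width was 180 bp. Peaks above the median width gave 68 chains with 227 peaks, a median span of 1660 bp and a median width of 246 bp. The share of chain peaks on chromosomes 5, 8, 11 and 19 was 53.3% and reached 57.0% with the limit of 500 bp and 66.5% in chains of at least 4; in the other alternatives it moved by less than its counting interval. No paired analysis was possible because the list does not separate the replicates, and for the same reason no replicate could be left out. A stricter peak threshold was not run, since no score was used. The depth is unknown, so missing peaks that would lengthen a chain cannot be counted.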
